A study of Homo sapiens with 9 samples.

Results

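SLC38A12 is a protein-coding gene of the SLC38 group of solute carriers, which the RefSeq gene table also lists under its older symbol TMEM104. It was the 1 gene found, among 14884 genes with a named array row, by a rule that took symbols of the amino acid transporter families SLC1A, SLC3A, SLC6A, SLC7A, SLC15A, SLC36A, SLC38A and SLC43A together with SLC16A10. Of 67 protein-coding symbols of that pattern in RefSeq, only this one had a named row in the annotation used here, and the others were not analysed here. A second matching symbol, an antisense RNA, was left out because its name is hyphenated. The values below therefore describe SLC38A12 and say nothing of the transporter families as a whole.

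The cells were HT-29, an established human colon cancer line with epithelial morphology, grown in medium with fetal calf serum. The groups were cells treated with rosemary extract, a plant extract rich in polyphenols, cells treated with carnosic acid, a phenolic diterpene of rosemary, and untreated cells, which received the vehicle. Each group had 3 arrays described as biological replicates, 9 arrays in all, and RNA was taken after 24 h. The labels state no concentrations, so doses cannot be matched between the treatments, and all groups come from 1 cell line. Nothing in the labels says whether replicates came from separate culture days, so the p-values measure the spread between these arrays.

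Amino acid transporters move amino acids across the plasma membrane and the membranes of organelles. Carriers of the SLC38 group are best known for neutral amino acids such as glutamine, which intestinal epithelium and many tumour cells use as a fuel and as a nitrogen source. Several transporter genes of this kind are known targets of the stress-responsive transcription factor ATF4, and amino acids inside the lysosome are sensed by the machinery that activates the growth kinase complex mTORC1. The transport activity of SLC38A12 itself was not measured here.

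In the GRCh38.p14 assembly the gene spans chr17:74776499-74839753, which is 63255 bases. No other RefSeq gene overlaps it (0 found), so its array row, annotated with transcript NM_017728, shares no annotated locus with a partner on either strand. The gene before it, NAT9, runs in the opposite direction and ends at position 74776345, so the starts of the 2 genes face each other across 153 bases. That stretch is shown because it is the shared start region of the gene whose level changed. It is read from the RefSeq promoter table on the plus strand at chr17:74776346-74776498, and capitals mark 2 CCAAT boxes and 1 palindrome GCGCATGCGC, the element bound by the transcription factor NRF1.
SLC38A12 upstream region: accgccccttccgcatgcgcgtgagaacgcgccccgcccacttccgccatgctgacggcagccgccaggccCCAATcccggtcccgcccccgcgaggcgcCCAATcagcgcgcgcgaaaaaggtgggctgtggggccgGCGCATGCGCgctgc

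The 250 bases before the start of SLC38A12 had a G and C content of 70.8%, against a median of 58.0% over 35116 RefSeq windows of that length, and held 30 CpG pairs, against a median of 11. The C/EBP-ATF element TGATGNAA was found at 0 places on either strand of this window, and 3.14% of all windows held it. The antioxidant response element core TGACNNNGC was likewise found at 0 places, and 10.9% of all windows held it. The E-box core CACGTG, which lysosomal genes often carry, was also found at 0 places, with 6.35% of all windows holding it. The last base of the GCGCATGCGC palindrome lay 6 bases before the start and was present in 1.03% of all windows, and CCAAT or its reverse complement in 32.0%. The E-box, the palindrome and the CCAAT box were chosen after the sequence was read. These matches describe the letters of the window and were not tested for binding, and none of these motifs overlaps another here.

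With rosemary extract SLC38A12 stood at log2 levels of 8.71, 8.65 and 8.57, with carnosic acid at 8.39, 8.51 and 8.53, and in untreated cells at 8.01, 8.06 and 7.87. All 6 treated arrays lay above all 3 untreated arrays. The extract arrays were also all above the carnosic acid arrays, but only just: the lowest extract array exceeded the highest carnosic acid array by 0.036. The group means were 8.64 ± 0.073 with the extract, 8.48 ± 0.078 with carnosic acid and 7.98 ± 0.10 in untreated cells (log2, SD, n = 3 each). The spread within a group, from its lowest to its highest array, was 0.146 with the extract, 0.145 with carnosic acid and 0.196 in untreated cells. In this order of levels, untreated cells were set apart from both treatments by more than that spread, and the treatments from each other by about as much as the spread itself. These values are RMA levels of a single array row (16837646), and all of them were above the limit of 4.50 under which a gene was left out as dim.

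**Figure D1:**
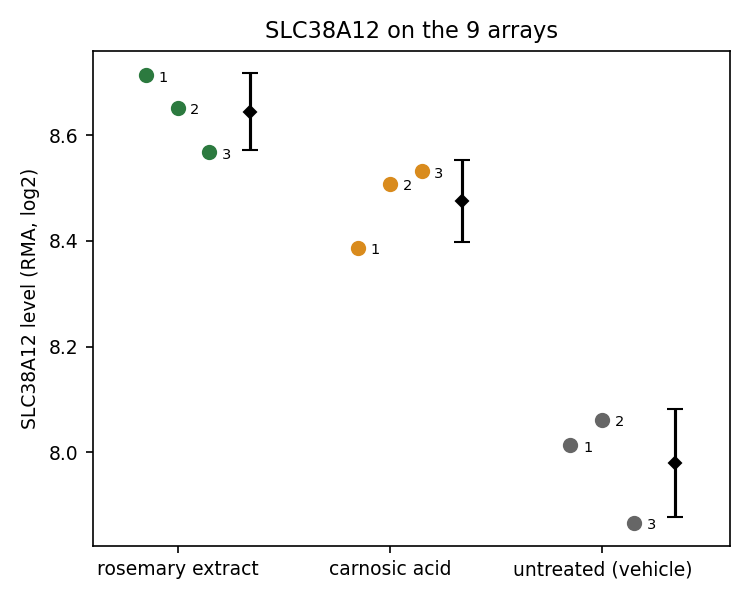
Level of SLC38A12 on each of the 9 arrays (RMA, log2 scale, axis not starting at 0), with rosemary extract at the left, carnosic acid in the middle and untreated cells at the right. Coloured points are arrays numbered by replicate, and black diamonds with bars are means ± SD (8.64, 8.48 and 7.98). Both treated groups lie wholly above the untreated arrays.

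The question for the whole extract was how SLC38A12 differed from its level in vehicle-treated cells. SLC38A12 rose by 0.66 ± 0.072 (log2 difference, SE), which is 1.58-fold with a 95% interval of 1.42 to 1.77. The lowest extract array exceeded the highest untreated array by 0.51. The fit across all 11163 genes tested, limma with Benjamini-Hochberg adjustment, gave an adjusted p = 2.00e-05, so the 1 gene found was called higher. In this comparison 38.1% of all genes tested were called (adjusted p under 0.05), 21.8% higher and 16.3% lower, so a call alone sets SLC38A12 beside many other genes. In size, whatever the direction, its change exceeded that of 88.7% of the genes tested, and 735 genes, itself included, had a rise at least as large. The median log2 difference was -0.018 over all genes tested and 0.48 over the genes called higher. By p-value SLC38A12 came 837th of 11163. The arrays of the groups did not overlap for this gene, as was so for 46.7% of all genes tested.

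The same question was put for the single compound. SLC38A12 rose by 0.49 ± 0.072 (log2 difference, SE), a 1.41-fold rise with a 95% interval of 1.26 to 1.57. The lowest carnosic acid array exceeded the highest untreated array by 0.32. Limma gave an adjusted p = 0.000699 over the 11163 genes, and the gene was again called higher. Here 19.0% of all genes tested were called, 12.9% higher and 6.12% lower. The split of those calls depends on scaling: 1440 were higher and 683 lower as deposited, against 1207 and 1098 after centring each array on its median, while SLC38A12 was called higher under both. In size the change of SLC38A12 exceeded that of 93.6% of the genes tested, falls included, and 535 genes, itself included, had a rise at least as large. The genes called higher had a median difference of 0.42, slightly under that of SLC38A12. The arrays did not overlap, as was so for 32.8% of all genes tested. The rises with the extract and with carnosic acid were measured against the same 3 untreated arrays, and so are not independent of each other.

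**Figure D2:**
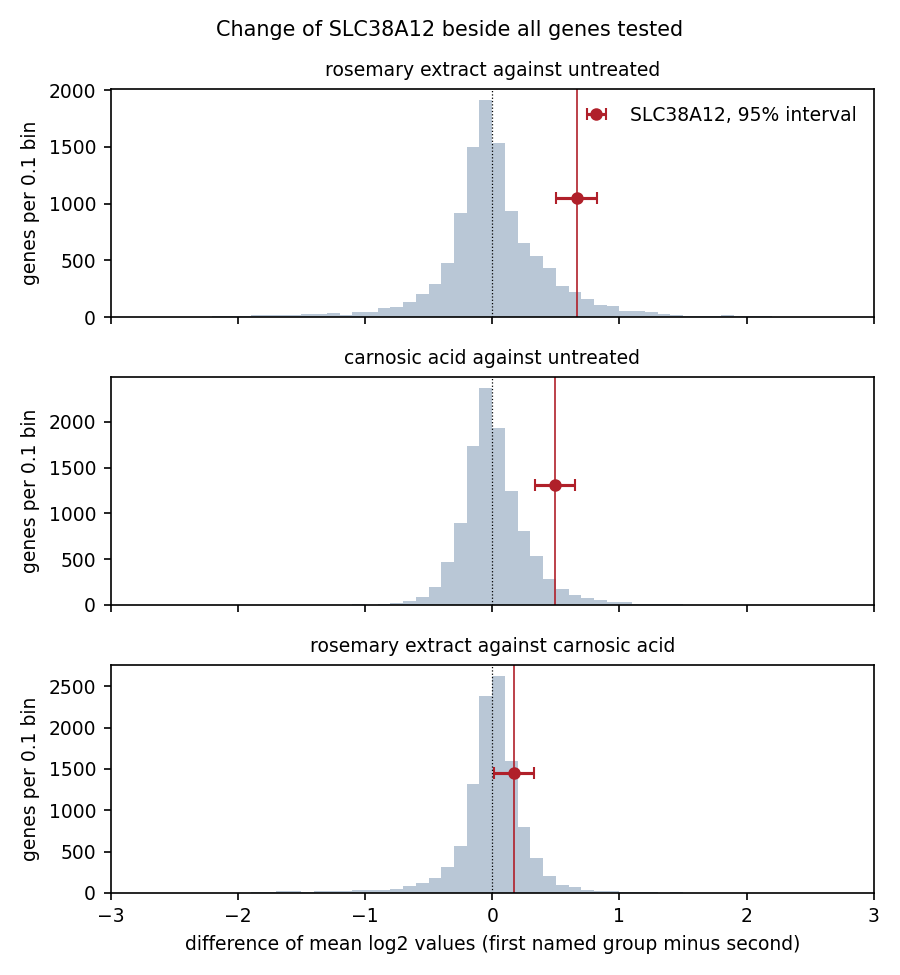
Log2 difference of SLC38A12 (red point and line, bar for the 95% interval) over the distribution of that difference for all 11163 genes tested (bars, genes per 0.1 bin), for the extract against untreated cells, carnosic acid against untreated cells and the extract against carnosic acid. The horizontal axis is cut, so the few largest rises with the extract lie outside it. SLC38A12 lies in the right shoulder at 0.66 and 0.49 in the upper panels and nearer the centre at 0.17 in the lowest.

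Rosemary extract was then set directly against carnosic acid. SLC38A12 was higher with the extract by 0.17 ± 0.072 (log2 difference, SE), which is 1.12-fold with a 95% interval of 1.01 to 1.25. This difference did not pass the threshold after adjustment (limma, unadjusted p = 0.0386, adjusted p = 0.151), and 17.3% of all genes tested were called in this comparison, 8.24% higher with the extract and 9.07% lower. That split is close to even and turned with scaling: 920 were higher and 1013 lower as deposited, against 1020 and 996 after median centring. The interval for this single gene, before adjustment over genes, runs from barely above no difference to 1.25-fold, so a difference of this order is neither shown nor shown to be absent. Its arrays did not overlap between the treatments, which was also so for 31.8% of all genes tested. Over all 3 groups, limma's moderated F test gave SLC38A12 an adjusted p = 5.40e-05.

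Among the 21 other solute carrier genes with a named row, all of them tested, 8 were called higher and 2 lower with the extract, and 5 higher and 0 lower with carnosic acid. In either direction 47.6% and 23.8% were called, against 38.1% and 19.0% of all genes tested. The shares called higher were 38.1% and 23.8%, against 21.8% and 12.9% of all genes tested. Those called lower were 9.52% and 0%, against 16.3% and 6.12%. SLC38A12 rose more than 17 of the 21 with the extract and more than 20 of the 21 with carnosic acid. The largest rise among them with either treatment was that of SLC66A1, which exports cationic amino acids from the lysosome: it rose by 1.22 ± 0.11 with the extract and by 0.90 ± 0.11 with carnosic acid (log2 difference, SE, limma adjusted p = 5.00e-06 and 0.000251). SLC25A15, the mitochondrial ornithine carrier, fell by 0.56 ± 0.12 with the extract (adjusted p = 0.00315), and its difference of -0.38 with carnosic acid did not pass (adjusted p = 0.0504). The list's median log2 difference was 0.13 with the extract and 0.11 with carnosic acid, against 0.66 and 0.49 for SLC38A12. These are only the solute carrier genes that had a named row in the annotation used here, and they do not stand for the superfamily. A further list, of mitochondrial, vesicular and lysosomal carriers, had 5 genes with a named row, all of them among those 21 solute carriers. They were SLC66A1, SLC66A2, SLC66A3, SLC25A2 and SLC25A15, and SLC38A12 rose more than 4 of these 5 with either treatment.

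SLC38A12 was also set beside genes of the amino acid response, the programme that ATF4 drives when amino acids run short or the endoplasmic reticulum is stressed. The list used also holds ATF4 itself and the kinases EIF2AK1, EIF2AK2, EIF2AK3 and EIF2AK4, which act before ATF4. Of 20 tested, 12 were called higher and 1 lower with the extract, and 10 higher and 0 lower with carnosic acid. ATF4 (0.21) and EIF2AK3 (0.57) were among those called higher with the extract, and EIF2AK2 (-0.46) was the 1 called lower. With carnosic acid ATF4 did not pass (-0.12). The shares called higher were 60% and 50%, against 21.8% and 12.9% of all genes tested, and the median log2 differences 0.46 and 0.30, against -0.018 and -0.011. This list, like the lists below, was chosen with earlier results of these data known. An excess over all genes may therefore be partly built in. With the extract 8 of the 20 rose more than SLC38A12, among them VLDLR (2.68), a lipoprotein receptor, and asparagine synthetase ASNS (2.12). With carnosic acid only 4 of the 20 exceeded it. Between the treatments the list had a median log2 difference of 0.21, with 9 members called higher with the extract and 1 lower (45% and 5%, against 8.24% and 9.07% of all genes tested), beside a difference of 0.17 for SLC38A12, which was not called.

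The next list held 24 tested genes of amino acid sensing and mTORC1 control, among them MTOR itself, RHEB, TSC1 and TSC2. SESN2 also belonged to the amino acid response list. Of the 24, 10 were called higher and 2 lower with the extract, and 5 higher and 1 lower with carnosic acid. That is 50% and 25% called, against 38.1% and 19.0% of all genes tested, and the list's median log2 differences were 0.16 and 0.079. Only 4 of them rose more than SLC38A12 with the extract: the leucine sensor SESN2 (2.02), the GTPase RRAGC (1.15), FNIP1 (1.06), a partner of folliculin, and TSC1 (0.67), a brake on mTORC1. With carnosic acid only FNIP1 (0.68) did. The rise of TSC1 with the extract was 0.67 ± 0.10, beside 0.66 ± 0.072 for SLC38A12 (log2 difference, SE). Such orders of rise, in this and the other lists, compare estimates only and were not tested. Among 8 tested genes linked to glutathione and redox control, 4 were called higher and 1 lower with the extract. With carnosic acid 3 were called higher and 1 lower. The shares called higher were 50% and 37.5%, against 21.8% and 12.9% of all genes tested. Those called lower were 12.5% with either treatment, against 16.3% and 6.12%. The list's median log2 differences were 0.11 and 0.035. Of the genes called higher, only GSS makes glutathione (0.31 with the extract, not called with carnosic acid). The glutathione synthesis genes GCLC and GCLM had no tested row. The glutathione reductase GSR (1.16 and 0.89) and the thioredoxin reductase TXNRD1 (1.05 and 0.67) rose more than SLC38A12 with both. The list of transporter partners had 8 tested genes, among them the kinase SGK1 and glutamine synthetase GLUL, which neither carry nor anchor transporters. Of the 8, 1 was called higher and 5 lower with the extract, and 1 higher and 1 lower with carnosic acid. GLUL was among those called lower with the extract (-0.45, limma adjusted p = 0.000618). Over all genes tested 16.3% and 6.12% were called lower, and the list's median log2 differences were -0.15 and -0.095. SLC38A12 rose more than 7 of these 8 with the extract and more than all 8 with carnosic acid. Its direction was opposite to that of CD44, an adhesion receptor, which fell by 0.999 ± 0.085 with the extract and by 0.48 with carnosic acid.

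**Figure D3:**
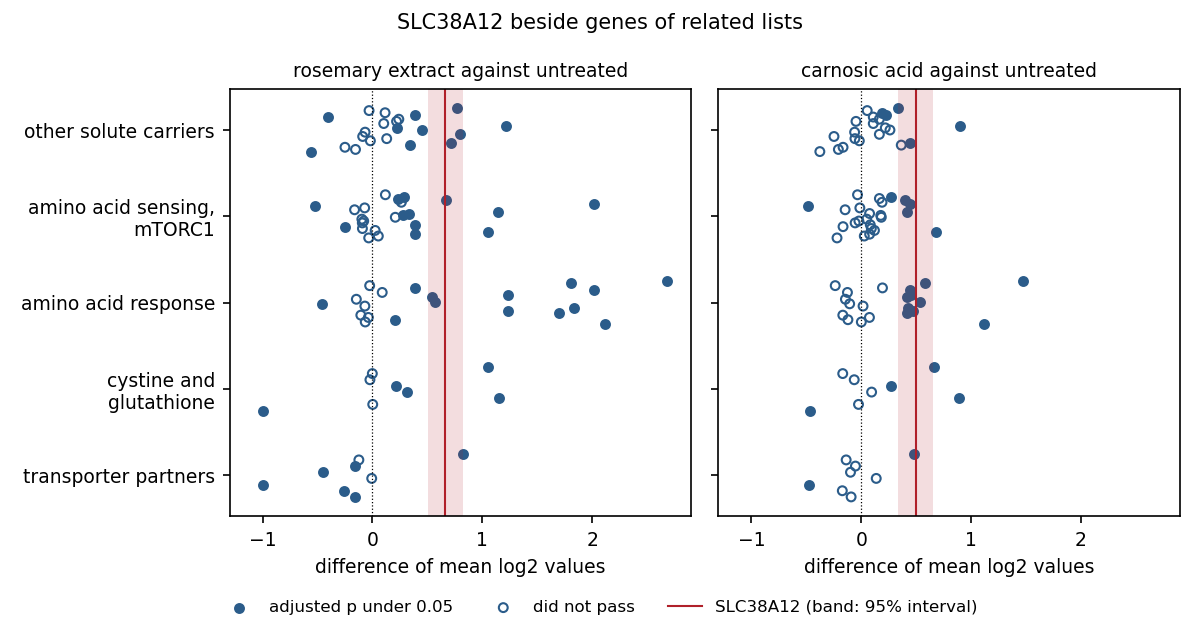
Log2 difference with rosemary extract (left) and with carnosic acid (right), each against untreated cells, for the tested genes of 5 lists (points, filled where limma's adjusted p was under 0.05), with SLC38A12 as a red line and its 95% interval as a band. Most genes of the other solute carrier list lie to the left of SLC38A12 in both panels, and 8 of 20 amino acid response genes lie to its right with the extract.

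The neighbours of SLC38A12 on the chromosome gave little to set beside it. Of the 5 nearest protein-coding genes on each side, CD300E, USH1G and OTOP2 had a tested row, and none of them passed the threshold in any comparison (log2 differences of -0.19, -0.26 and -0.078 with the extract, limma adjusted p of 0.484, 0.225 and 0.611). The closest, NAT9 and GRIN2C, had no named row here. Likeness of pattern over the 9 arrays was measured by the mean absolute difference of centred log2 values. Symbols that begin with LOC, or hold a hyphen or orf, were left out of the ranking. Among the remaining genes the nearest to SLC38A12 were U2AF1L4 (0.050), HMGA1 (0.054), IFNGR2 (0.059), SGMS1 (0.059) and EGF (0.060). Genes with the symbols left out may lie nearer. This measure and its count of 5 were chosen after the values were seen. It was computed for 11162 other genes, of which many changed.

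Under 18 other settings of the processing, SLC38A12 remained called higher with both treatments and uncalled between them. Only rescaling the arrays or leaving out an array of a compared group could move the log2 difference of SLC38A12. The other settings could change only its SE and adjusted p. Its change with the extract ranged from 0.61 to 0.70 and with carnosic acid from 0.44 to 0.54, and the lowest value in both came without untreated replicate 3, the array with the lowest level.

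**Figure D4:**
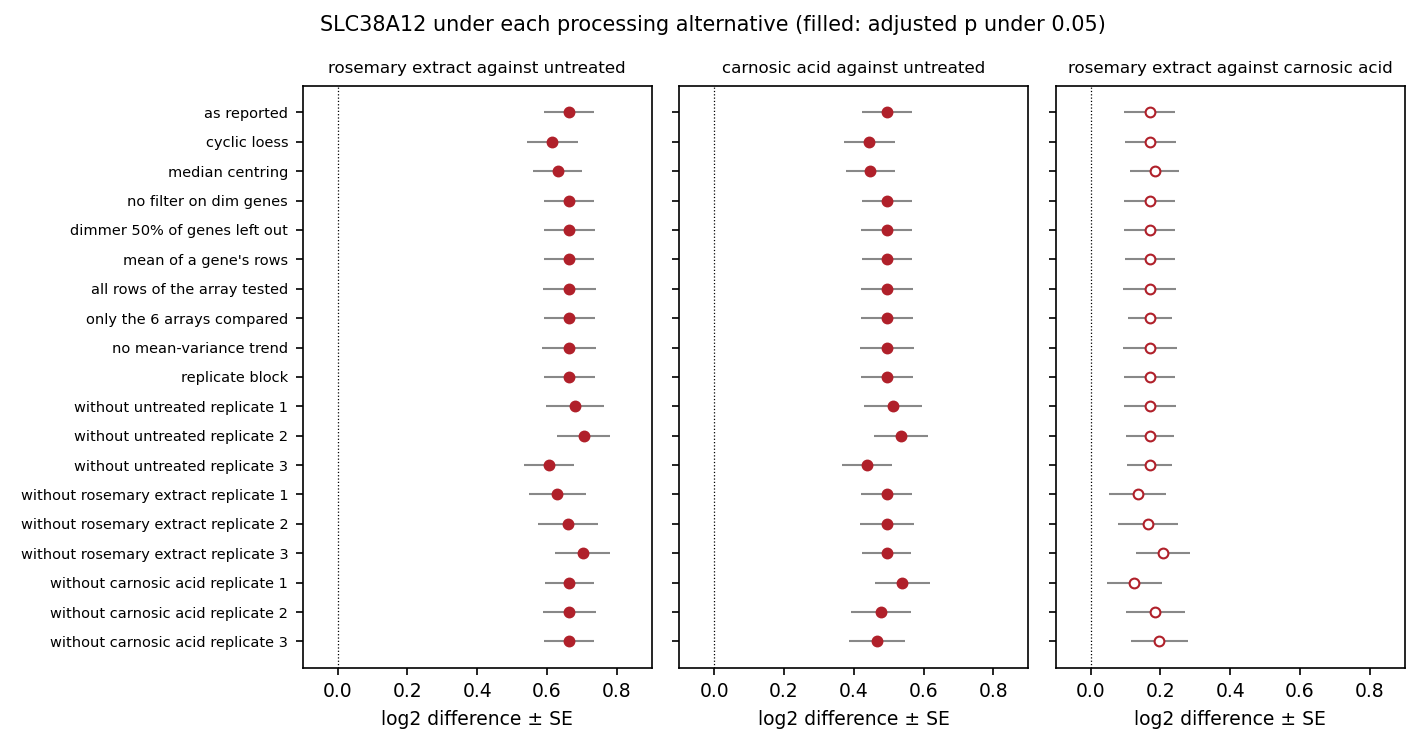
Log2 difference of SLC38A12 ± SE in each comparison, as reported (top) and under 18 processing alternatives including leaving out each array. Filled points had an adjusted p under 0.05: all those against untreated cells are filled, and all those between the treatments are open.

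All 11 colon epithelium markers with a row were above the dim limit, as were 4 of 4 leukocyte, 3 of 6 hepatocyte and 2 of 4 fibroblast markers, so passing that limit does not set the line's own markers apart. Colon markers moved both ways: CEACAM5 averaged 10.01 with the extract, 9.40 with carnosic acid and 7.19 in untreated cells, while TSPAN8 averaged 5.80, 6.70 and 7.94 and VIL1 7.26, 8.20 and 8.55 in the same groups. The mean level of the 4 leukocyte markers was 7.95 to 8.07 with the extract, 7.85 to 7.91 with carnosic acid and 7.68 to 7.71 in untreated cells. Of these markers CD68, which lysosomes of many cells also contain, was the only one with a higher mean in both treatments, at 9.83, 9.18 and 7.94 in the same groups. The other 3 had lower means with either treatment: LYZ at 12.17, 12.35 and 12.43, CD14 at 4.67, 4.71 and 4.98, and NKG7 at 5.37, 5.31 and 5.46. The part of these markers in the result for SLC38A12 was not tested. The median of an array was between 4.82 and 4.90, arrays of 1 group correlated at 0.991 or above, and no pair held identical values (0 pairs).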

How the data were processed

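Per the labels, the deposited values are RMA log2 expression values made by the authors with the oligo package in R from Affymetrix 2.0 ST arrays. RMA subtracts background, aligns the distributions of the arrays and combines the probes of each row into 1 value. It compresses large changes and gives no detection call. Software versions and the build were not given in the sources used here, and the range of the values shows that the scale is log2.

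Of 53617 rows, 16098 had 1 gene symbol in the platform annotation, 0 had several and 37519 were unnamed there. All 16098 Entrez identifiers matched RefSeq and 0 symbols changed. The brightest row stood for each of 14884 genes (779 had over 1 row, SLC38A12 had 1). The lowest 25% by mean were dropped as dim, so 11163 genes were tested. The 9 arrays entered 1 model of group means (limma 3.58.1, R 4.3.3; lmFit, moderated by eBayes along a trend of variance with level, two-sided, on 6 residual degrees of freedom), with Benjamini-Hochberg adjustment over all genes tested and calls at an adjusted p under 0.05. On simulated data for the extract against untreated cells (11163 genes, 200 changed, 10 draws) the fit recovered 13.9%, 73.4% and 96.4% of genes changed 1.2-fold, 1.5-fold and 2-fold, and 3.82% of calls were false. In the data themselves 38.1% of genes were called in that comparison, a far larger share than was simulated. The simulated rates may therefore not hold for the data.

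Members and lists were chosen with earlier results of these data known. The naming rule took the transporter genes found, and up to 4 genes per list by smallest p. It printed a promoter only where it held an ATF or antioxidant element, so the region shown is an exception, made after seeing that SLC38A12 was the only member. The list of other solute carriers was also added then. The number of arrays limits the precision.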

Additional observations from a re-analysis of the deposited data

How the results depend on the processing

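SLC38A12 kept its direction and its side of the threshold in all 3 comparisons under the 18 alternatives run: cyclic loess, median centring, no filter on dim genes, the dimmer 50% left out, the mean of a gene's rows, all rows tested, only the 6 arrays compared, no mean-variance trend, the replicate block and leaving out each array. Its adjusted p ranged from 9.09e-06 to 0.000372 with the extract, from 0.000372 to 0.00715 with carnosic acid and from 0.101 to 0.390 between the treatments, where the difference ranged from 0.12 to 0.21. The mean of a gene's rows changes no value for this gene, which has 1 row. Its log2 difference was also fixed under either change of the dim filter and with all rows tested. The same holds for only the 6 arrays compared, no mean-variance trend and the replicate block. Leaving out an array of the group not compared could not move it either. For these settings the unchanged direction is therefore no check. With the replicate number as a block, its adjusted p was 4.63e-05, 0.00113 and 0.166 in the same order, and the block changed none of its calls. The numbers were not taken to pair the arrays: 3 of 9 same-numbered pairs had deviations correlated over 0.1 (range -0.22 to 0.24), and the best match in another group had the array's own number in 6 of 18 cases. With the block, 4226, 2194 and 1947 genes were called, against 4256, 2123 and 1933 without it. The count of all calls moved beyond 1.5 times in 2 cases: 7230 rows were called with the extract when all 53617 rows were tested, a setting that also drops the dim filter and the choice of 1 row per gene, and 1385 genes with carnosic acid without carnosic acid replicate 1. By direction, genes lower with carnosic acid numbered 1098 under median centring and 367 without carnosic acid replicate 1, against 683 as reported. Genes higher with the extract than with carnosic acid numbered 551, 533 and 612 without extract replicate 1, extract replicate 2 or carnosic acid replicate 2, against 920, and without extract replicate 3 the split was 1036 higher and 929 lower. Leaving out 1 array gave 3493 to 4237 calls with the extract, 1385 to 2124 with carnosic acid and 1289 to 1965 between them.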
